A study of Homo sapiens with 8 samples.

Results

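Transcripts of 10 genes of the semaphorin guidance system were compared among 4 groups of sublines of 2 esophageal squamous cell carcinoma lines, KYSE30 and KYSE180. The genes were the ligands SEMA3A, SEMA3C, SEMA3F, SEMA4B and SEMA7A, the co-receptors NRP1 and NRP2, and the receptors PLXNA1, PLXNB2 and PLXND1. They were found by symbol, as probe sets whose platform annotation gives 1 of these symbols and no other. Each gene had such a probe set, 34 in all, and was read at the probe set with the highest mean over the 8 arrays. All 10 passed the filter on low values, a mean log2 value of at least 4.46, as did 14180 of the 19775 genes with a probe set of their own. SEMA3A passed it through KYSE30 alone.

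The groups came from repeated selection in transwells, chambers in which cells migrate through a porous membrane. After 4 rounds, cells that had crossed the membrane (30D and 180D) and cells that had not (30U and 180U) were harvested and grown for 2 passages before RNA was taken. Per the labels, 30D was more motile than 30U and 180D more motile than 180U. Each group had 2 arrays from separate parental populations, each population giving 1 U and 1 D subline. No agent or genetic change was named for any group, and no array of the unselected lines was used here. The question put to each gene was whether its transcript differed between the sublines that crossed and those that stayed, and whether that difference was alike in the 2 lines. Values are log2 expression values, so a difference of 1 is a 2-fold difference. Adjusted p-values are from limma with Benjamini-Hochberg adjustment over the 14180 genes, and a gene is said to have risen or fallen where that value is under 0.05.

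Semaphorins are secreted or membrane-bound proteins that steer axons, blood vessels and epithelial cells, and in carcinoma cells they are studied as local signals for motility. Plexins are their receptors and carry an intracellular GTPase-activating domain that acts on small GTPases of the Ras and Rap family. The secreted class 3 semaphorins mostly bind plexins through a neuropilin, and neuropilins also bind members of the vascular endothelial growth factor (VEGF) family. Class 4 semaphorins span the membrane, and SEMA7A is held in it by a lipid anchor.

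The arrays were alike in their medians, which lay between 5.02 and 5.04. The 180D replicate 1 array stood apart in the difference between the 3′ and 5′ control probe sets of ACTB, a sign of RNA quality, at 1.92 against 1.06 to 1.42 on the other 7 arrays. The SEMA3C and NRP1 results in KYSE180 are therefore also given without it, as is each difference there that it moved by over 1.5 times. The ACTB difference also split by line, at 1.06 to 1.27 on the KYSE30 arrays and 1.36 to 1.92 on the KYSE180 arrays. In comparisons between the lines, RNA quality and line therefore cannot be told apart. Within KYSE30 the ACTB difference was 1.25 and 1.27 in 30U but 1.06 and 1.23 in 30D. Within KYSE180 it was 1.36 and 1.40 in 180U but 1.92 and 1.42 in 180D. It thus also split D from U arrays in each line, in opposite directions. Its part in the changes within a line, or in how these differed between the lines, was not tested. Of the markers of squamous epithelium, CDH1 was well above the filter in both lines, while KRT5 and KRT14, keratins of basal squamous cells, averaged 4.63 and 3.54 in 30U and 12.30 and 13.62 in 180U. KRT14 was thus under the filter in KYSE30. Of 9 squamous markers, 8 were above the filter in 30U and 30D, and 9 in 180U and 180D. DSG3, LAMB3, SOX2 and SFN averaged 7.17, 8.98, 9.80 and 12.60 in 30U. In each group 4 of 10 fibroblast markers, 5 or 6 of 10 endothelial markers and 3 or 4 of 9 immune markers were above the filter. The markers of each of these cell types thus went both ways. COL1A1, PECAM1 and CD79A were above the filter in all groups, and POSTN, KDR and PTPRC were below it in all groups. Of 10 neural markers 8 were above it in every group, among them TUBB3 at 11.65 to 11.88 on all arrays. In 30D, 3 of the 9 squamous markers rose, among them LAMB3 (0.76) and SFN (0.24), and SOX2 (-1.94) and DSC3 (-1.28) fell. Of the neural markers MBP (0.27) rose and MAP2 (-0.38) fell. The part of the squamous and neural markers in the results of KYSE30 was not tested.

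Between the sublines of KYSE30, NRP1 rose and SEMA3F fell in 30D, and between those of KYSE180, SEMA3C rose in 180D. The 2 of 10 genes that passed the test in KYSE30 compare with 16.5% of all genes tested, and the 1 of 10 in KYSE180 with 3.75%. The change of SEMA3C differed between the lines, 1 of 10 genes against 12.2% of all genes. The median absolute log2 difference of the 10 genes was 0.12 in KYSE30 and 0.14 in KYSE180, beside 0.11 and 0.09 over all genes. The lines themselves differed in all 10 genes, 6 higher and 4 lower in KYSE180, and 71.4% of all genes also passed that test, 38.7% higher and 32.7% lower. For 5 of the 10 the difference was 2-fold or more on the probe set used, against 17.2% of all genes. SEMA3A is among the 10 and the 5, though it passed the filter through KYSE30 alone. The other probe sets past the filter of SEMA3C (0.98), SEMA3F (0.88 and 0.67), PLXNA1 (0.77 and 0.58) and NRP1 (-0.58) gave under 2-fold. The median absolute log2 difference between the lines was 0.92 for the 10 genes and 0.33 for all genes. The 10 genes were chosen with earlier results of these data known, so their excess over all genes cannot be read as a trait of the family. In bulk RNA, fewer cells with a transcript and less transcript per cell cannot be told apart, here or below.

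**Figure D1:**
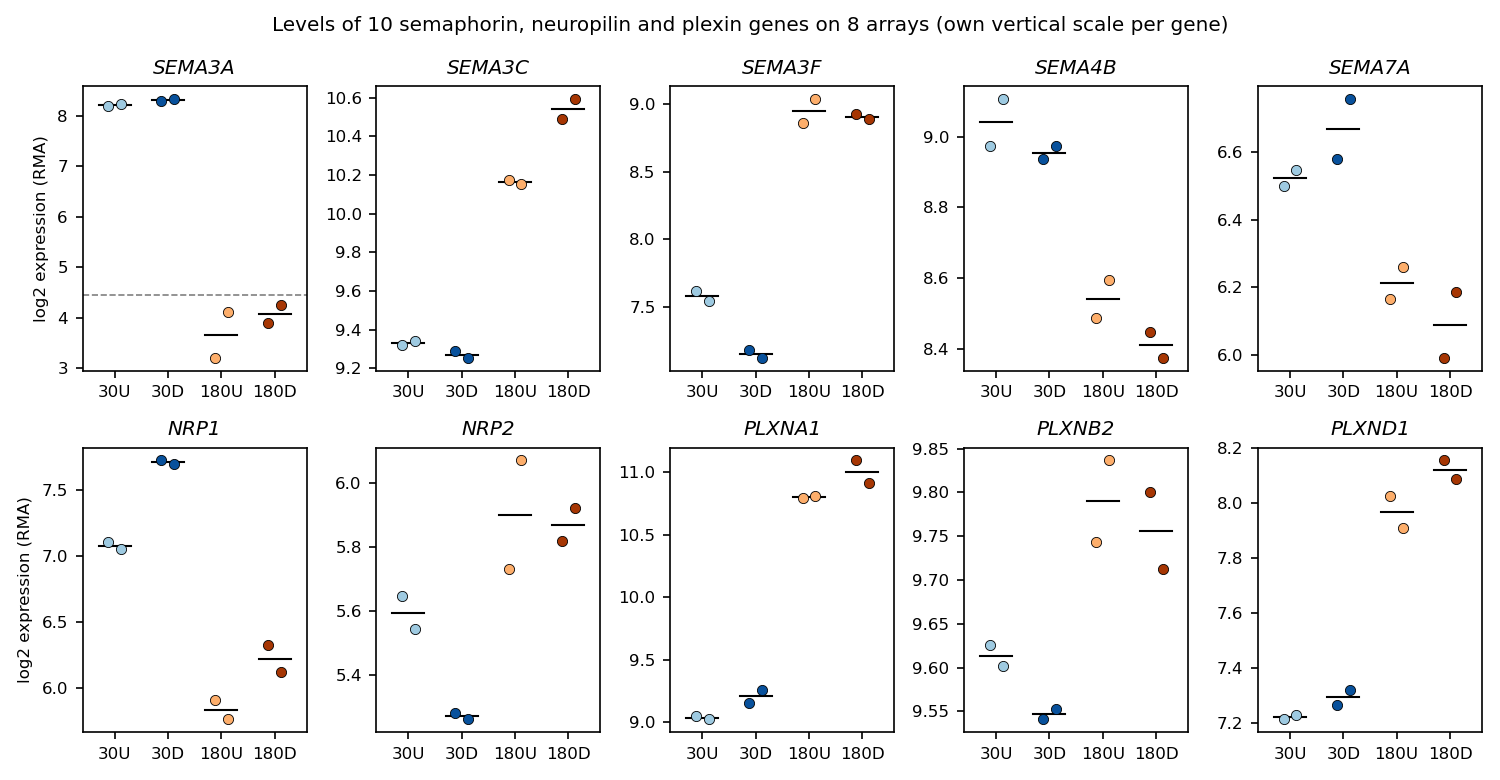
Log2 expression of each of the 10 genes on the 8 arrays, 1 panel per gene with its own vertical scale; points are arrays and bars are group means over 2 arrays, and the dashed line for SEMA3A is the filter value. SEMA3A lay between 8.20 and 8.33 in KYSE30 and between 3.20 and 4.25 in KYSE180, and NRP1 was higher in 30D (7.73 and 7.70) than in 30U (7.11 and 7.05).

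SEMA3A, the secreted class 3 ligand that acts through NRP1 and A-type plexins, separated the lines most. It measured 8.20 and 8.23 in the 30U arrays, 8.30 and 8.33 in 30D, 3.20 and 4.10 in 180U, and 3.89 and 4.25 in 180D. Every KYSE180 value was under the filter, so only a bound on the fold can be given. Against the filter value, SEMA3A was at least 14.02-fold higher in KYSE30 than in KYSE180 (difference of -4.40 ± 0.18, SE; adjusted p = 3.55e-07). As SEMA3A passed the filter through KYSE30 alone, limma's p-value is given as a description. With no filter on low values the adjusted p was 6.22e-07. Within KYSE30 the 2 groups did not overlap, but the difference of 0.10 ± 0.26 (SE) did not pass the test (adjusted p = 0.841), with a 95% interval from -0.51 to 0.71. That standard error is shared by all groups and takes in the KYSE180 values, whose SD in 180U was 0.64 against 0.02 in 30U. Within KYSE180 the difference was 0.42 ± 0.26 (SE; adjusted p = 0.439), between values that were all under the filter. A second probe set, 244163_at, whose own mean was under the filter, read 6.09 and 6.17 in 30U, 5.63 and 5.59 in 30D and 2.08 to 2.33 in KYSE180. It gave the same order of the lines, but in 30D it was 0.52 lower than in 30U, opposite in sign to the probe set tested.

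SEMA3C, a class 3 ligand that binds both neuropilins and signals through A-type plexins and PLXND1, was the member that rose in 180D. Its values were 9.32 and 9.34 in 30U, 9.29 and 9.25 in 30D, 10.18 and 10.15 in 180U, and 10.49 and 10.59 in 180D. Both 180D arrays were above both 180U arrays, while in KYSE30 the D arrays were slightly below the U arrays. The difference in KYSE180 was 0.38 ± 0.06 (SE; adjusted p = 0.0148), a 1.30-fold rise. In KYSE30 it was -0.06 ± 0.06 (SE; adjusted p = 0.518). The change in KYSE180 exceeded that in KYSE30 by 0.44 ± 0.08 (SE; adjusted p = 0.0149). The level in KYSE180 was 2.07-fold that in KYSE30 (1.05 ± 0.04, SE; adjusted p = 1.91e-07).

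The call of SEMA3C in 180D was lost when parental population entered the fit as a block (adjusted p = 0.0604), without 180U replicate 1 (0.39, adjusted p = 0.0600) or replicate 2 (0.37, adjusted p = 0.0769), and with the KYSE180 arrays alone (adjusted p = 0.101). Without 180D replicate 1 the difference was 0.43 (adjusted p = 0.0281). The other probe set, 203788_s_at, gave 0.10 (adjusted p = 0.851), reading 6.83 and 6.94 in 180U and 6.66 and 7.31 in 180D. With the mean over both probe sets the difference in 180D was 0.24, and the call was lost (adjusted p = 0.353). The test of the difference between the lines was lost when any KYSE30 array was left out (0.42 to 0.46, adjusted p = 0.0545 to 0.0653) and with the mean over the probe sets (0.29, adjusted p = 0.333), and kept with the block (adjusted p = 0.0461). Of the fibroblast markers, COL1A1 also rose in 180D (0.58 ± 0.11, SE; adjusted p = 0.0350). The summed log2 level of all 10 was 42.1 and 43.3 in 180U and 44.1 and 43.5 in 180D, with 4 of 10 above the filter in both groups, and their part in the SEMA3C result was not tested.

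SEMA3F, a class 3 ligand that acts mainly through NRP2, fell in 30D. The 30U arrays read 7.62 and 7.54, the 30D arrays 7.19 and 7.12, the 180U arrays 8.86 and 9.04, and the 180D arrays 8.92 and 8.89. Both 30D values were below both 30U values, while the 180D values lay between those of 180U. The difference in KYSE30 was -0.43 ± 0.07 (SE; 95% interval -0.59 to -0.26; adjusted p = 0.00865), a level 1.34-fold higher in 30U. In KYSE180 it was -0.04 ± 0.07 (SE; adjusted p = 0.785). The difference between these changes, 0.38 ± 0.10 (SE), did not pass the test (adjusted p = 0.0517), so a fall particular to KYSE30 was not shown. KYSE180 had a level 2.95-fold that of KYSE30 (1.56 ± 0.05, SE; adjusted p = 9.02e-08), while its other probe sets past the filter gave 0.88 and 0.67, under 2-fold. The fall in 30D was not called without 30U replicate 1 (-0.39, adjusted p = 0.0631) or 30D replicate 2 (-0.39, adjusted p = 0.0634), or with the mean over its probe sets (-0.26, adjusted p = 0.0503). In 30D the other probe sets gave -0.14 (209730_at, adjusted p = 0.247) and -0.22 (206832_s_at, adjusted p = 0.526).

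SEMA4B, a membrane-spanning class 4 semaphorin, and SEMA7A, the lipid-anchored ligand of PLXNC1 and β1 integrins, differed little between the sublines. SEMA4B read 8.98 and 9.11 in 30U, 8.94 and 8.97 in 30D, 8.49 and 8.59 in 180U, and 8.45 and 8.37 in 180D. The D arrays of SEMA4B were the lower ones in both lines, by 0.09 in KYSE30 (adjusted p = 0.449) and 0.13 in KYSE180 (adjusted p = 0.354), and neither difference passed the test. SEMA7A read 6.50 and 6.55 in 30U, 6.58 and 6.76 in 30D, 6.17 and 6.26 in 180U, and 5.99 and 6.19 in 180D. Its groups overlapped in KYSE180, and its differences were 0.14 in KYSE30 (adjusted p = 0.321) and -0.12 in KYSE180 (adjusted p = 0.504; -0.026 without 180D replicate 1). Both ligands were lower in KYSE180, SEMA4B by 0.52 ± 0.05 (SE; adjusted p = 3.06e-05) and SEMA7A by 0.45 ± 0.06 (SE; adjusted p = 0.000358). SEMA4B had 1 probe set, and the second probe set of SEMA7A, 210083_at, showed a difference between the lines of only -0.05 (adjusted p = 0.633).

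NRP1, the co-receptor of SEMA3A and a receptor for VEGF, had the largest change within a line that passed the test. Its values were 7.11 and 7.05 in 30U and 7.73 and 7.70 in 30D. In KYSE180 they were 5.91 and 5.76 in 180U and 6.33 and 6.12 in 180D. The D arrays were above the U arrays in both lines, and the groups did not overlap. The rise in 30D was 0.63 ± 0.08 (SE; 95% interval 0.44 to 0.83; adjusted p = 0.00344), or 1.55-fold. In 180D the difference was 0.39 ± 0.08 (SE; 95% interval 0.19 to 0.58) and did not pass the test (adjusted p = 0.0528). Without 180D replicate 1 it was 0.29 (adjusted p = 0.169), and without 180D replicate 2 it was 0.49 and passed (adjusted p = 0.0385). The 2 changes differed by -0.25 ± 0.12 (SE; adjusted p = 0.221), so a difference between the lines was not shown. Between the lines, NRP1 was 2.58-fold higher in KYSE30 (-1.37 ± 0.06, SE; adjusted p = 3.86e-07).

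The call of NRP1 in 30D rests on 1 of its 2 probe sets past the filter. It was kept with each array left out in turn (0.61 to 0.66, adjusted p at most 0.0308). The other, 210510_s_at, read 5.87 and 5.95 in 30U, 5.82 and 5.92 in 30D, 5.14 and 5.11 in 180U, and 5.68 and 5.31 in 180D. There the KYSE30 groups overlapped, with a difference of -0.05 (adjusted p = 0.853), while both 180D arrays were above both 180U arrays (0.37, adjusted p = 0.168). The mean of both probe sets gave 0.29 in KYSE30 (adjusted p = 0.0715), so the call was lost there. Which NRP1 transcripts each probe set reads was not examined here.

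NRP2, the co-receptor preferred by SEMA3F, had 11 probe sets, 7 of them past the filter, and they did not give 1 answer. The brightest read 5.65 and 5.54 in 30U, 5.28 and 5.26 in 30D, 5.73 and 6.07 in 180U, and 5.82 and 5.92 in 180D. Its 30D values were below both 30U values, by 0.32 ± 0.11 (SE), which did not pass the test (adjusted p = 0.0882). It passed without 180U replicate 1 or without 180U replicate 2 (adjusted p = 0.0230 in each case) and with the KYSE30 arrays alone (adjusted p = 0.0236), where the spread of the 180U arrays, with an SD of 0.24, did not enter or entered less. In KYSE180 the groups overlapped (-0.03 ± 0.11, SE; adjusted p = 0.913), and the difference was 0.021 without 180D replicate 1. NRP2 was higher in KYSE180 by 0.45 ± 0.08 (SE; adjusted p = 0.00101). Of its other probe sets, 4 passed that test with 0.77 to 1.18, and 210841_s_at (0.14, adjusted p = 0.140) and 219367_s_at (0.25, adjusted p = 0.120) did not.

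In a fit of all probe sets past the filter, 222877_at and 210841_s_at of NRP2 fell in 30D, by 0.64 (adjusted p = 0.00945) and 0.43 (adjusted p = 0.0430). Probe set 222877_at read 5.22 and 5.28 in 30U, 4.74 and 4.48 in 30D, 5.93 and 5.76 in 180U, and 6.12 and 6.09 in 180D. Its D arrays were the lower ones in KYSE30 and the higher ones in KYSE180, and the changes differed by 0.91 ± 0.14 (SE; adjusted p = 0.0123). The other 4 dimmer probe sets past the filter gave differences of -0.07, -0.04, 0.02 and 0.11 in KYSE30, none past the threshold.

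**Figure D2:**
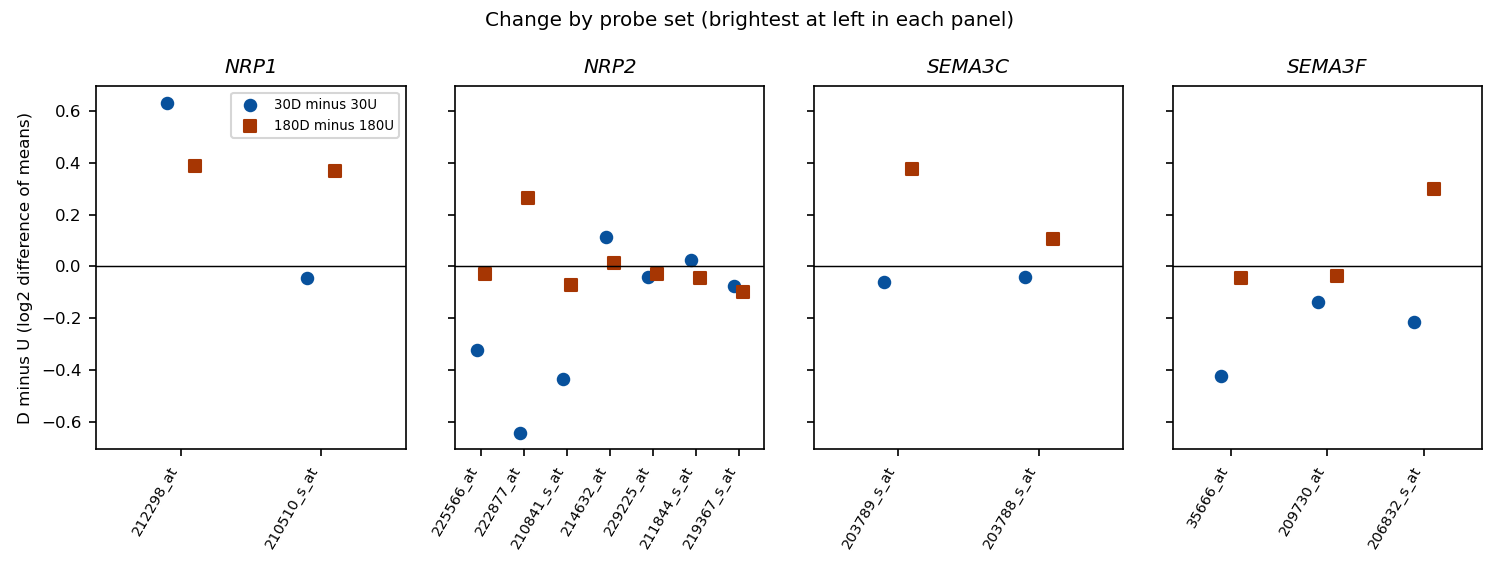
Difference of group means, D minus U, on the log2 scale for each probe set of NRP1, NRP2, SEMA3C and SEMA3F past the filter, with the brightest at the left and 1 symbol per line. For NRP1 the probe sets gave 0.63 and -0.05 in KYSE30, and for NRP2 the values in KYSE30 ran from -0.64 to 0.11.

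PLXNA1, the A-type plexin that pairs with neuropilins for class 3 ligands, was the receptor that differed most between the lines. It read 9.05 and 9.02 in 30U, 9.16 and 9.26 in 30D, 10.80 and 10.82 in 180U, and 11.10 and 10.92 in 180D. The level in KYSE180 was 3.44-fold that in KYSE30 (1.78 ± 0.05, SE; adjusted p = 4.89e-08), and its other probe sets past the filter gave 0.77 and 0.58 in the same direction. On the probe set used, the D arrays were above the U arrays in both lines. The differences of 0.17 ± 0.07 (SE; adjusted p = 0.163) in KYSE30 and 0.20 ± 0.07 (SE; adjusted p = 0.197) in KYSE180 did not pass the test, and the latter was 0.11 without 180D replicate 1. On the other probe sets past the filter the groups overlapped in both lines. The differences there were 0.03 in KYSE30 and 0.09 in KYSE180 for 221537_at, and 0.19 and -0.02 for 1558140_at.

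PLXND1, a receptor for SEMA3E and, with neuropilins, for SEMA3C, read 7.21 and 7.23 in 30U, 7.27 and 7.32 in 30D, 8.02 and 7.91 in 180U, and 8.15 and 8.09 in 180D. Its D arrays were also above its U arrays in both lines, by 0.07 (adjusted p = 0.465) and 0.15 (adjusted p = 0.229), which did not pass the test. It was higher in KYSE180 by 0.79 ± 0.04 (SE; adjusted p = 1.43e-06), and 212235_at gave 0.85 for the lines but -0.25 (adjusted p = 0.0748) for 30D against 30U. Its other probe set past the filter, 1563657_at, showed no such difference of the lines (0.04, adjusted p = 0.443). PLXNB2, a receptor for class 4 semaphorins, read 9.63 and 9.60 in 30U, 9.54 and 9.55 in 30D, 9.74 and 9.84 in 180U, and 9.80 and 9.71 in 180D. It had the smallest difference between the lines of the 10 genes, 0.19 ± 0.04 (SE; adjusted p = 0.00359) higher in KYSE180. Between its sublines the differences were -0.07 (95% interval -0.20 to 0.07; adjusted p = 0.493) in KYSE30 and -0.03 (adjusted p = 0.799; -0.078 without 180D replicate 1) in KYSE180, where the groups overlapped.

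**Figure D3:**
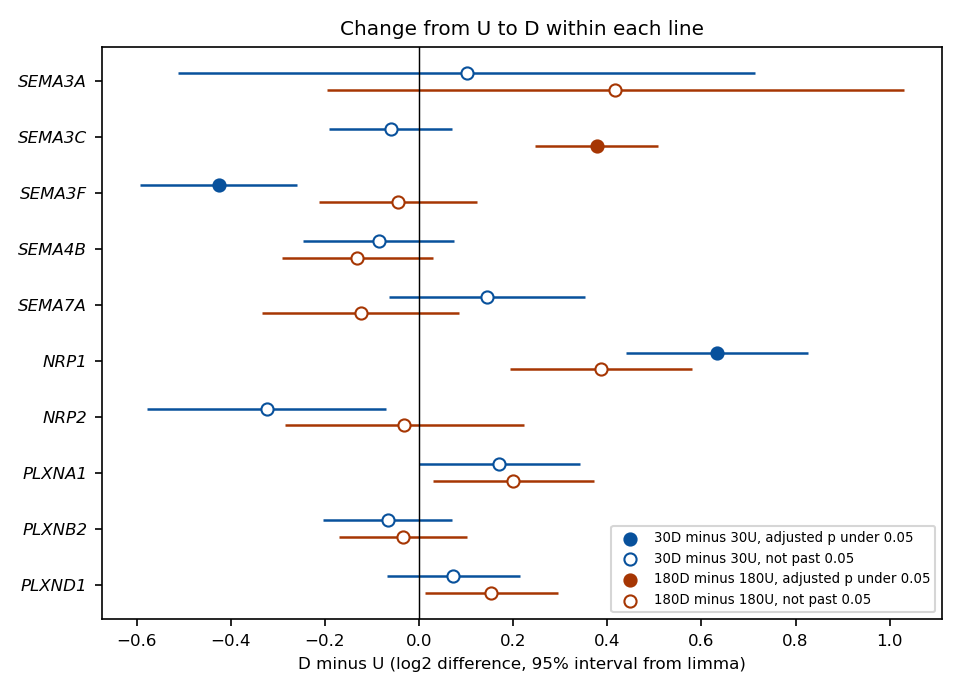
Log2 difference between D and U sublines for the 10 genes in each line, with 95% intervals from limma; the intervals share 1 estimate of the spread per gene. NRP1 lay at 0.63 in KYSE30 and 0.39 in KYSE180, SEMA3F at -0.43 and -0.04, and SEMA3C at -0.06 and 0.38.

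Over the 10 genes, the D and U arrays did not overlap for 10 of 10 in KYSE30, 5 with D above and 5 with D below, and for 64.7% of all genes tested. In KYSE180 this held for 5 of 10, against 44.6% of all genes. On the probe set used, NRP1, PLXNA1 and PLXND1 had both D arrays above both U arrays in each line, and SEMA4B had them below, 4 of 10 genes beside 13.5% of all genes with 1 direction in both lines. Among these 4 genes, NRP1 in KYSE30 passed the test and the other comparisons within a line did not. No other probe set past the filter of NRP1, PLXNA1 or PLXND1 repeated this order in KYSE30. There the arrays overlapped on 210510_s_at of NRP1 and on 221537_at and 1558140_at of PLXNA1. On 212235_at and 1563657_at of PLXND1 both 30D arrays were below both 30U arrays. Since the 10 genes were chosen with earlier results known, these shares cannot be read as a trait of the family.

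Between the lines, KYSE180 had more SEMA3C, SEMA3F, NRP2, PLXNA1, PLXNB2 and PLXND1 transcript, and KYSE30 more SEMA3A, SEMA4B, SEMA7A and NRP1. Ligands and neuropilins had members on both sides, and the 3 plexins were all higher in KYSE180. SEMA3A and NRP1, a ligand and its co-receptor, were both higher in KYSE30, while SEMA3F and NRP2 were both higher in KYSE180. Other partners went opposite ways. SEMA3C, which binds both neuropilins, was higher in KYSE180 and NRP1 lower, and SEMA3A was lower there and PLXNA1 higher. Each of the 10 calls was kept with every array left out in turn.

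**Figure D4:**
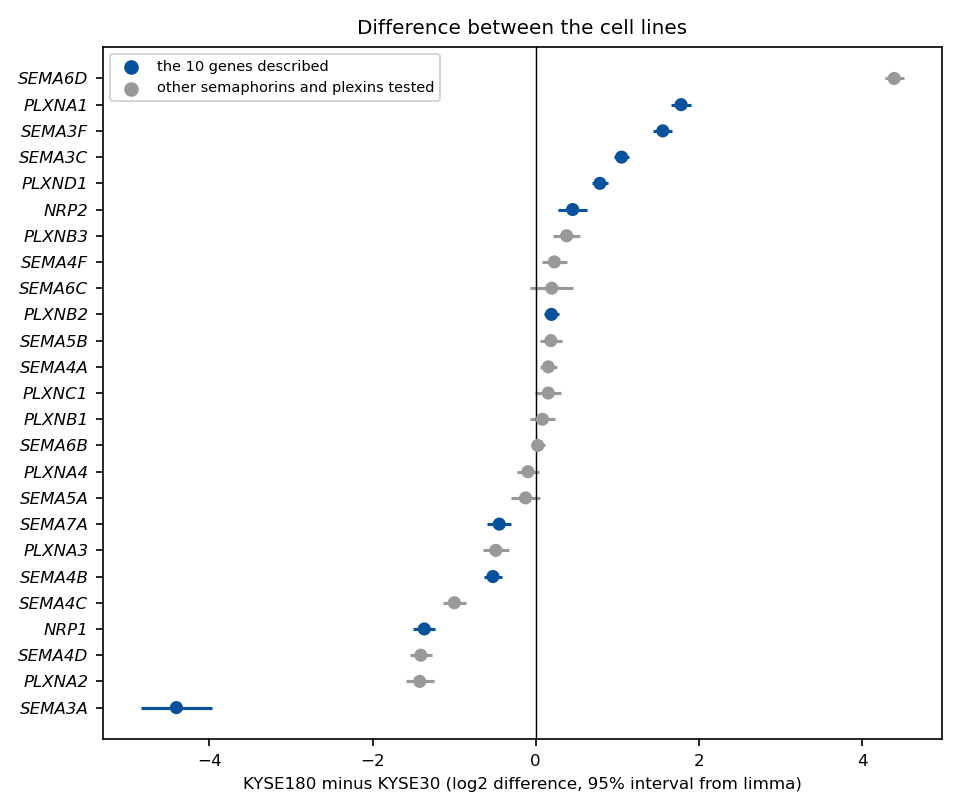
Log2 difference KYSE180 minus KYSE30 with 95% intervals from limma, ordered by size, for the 10 genes (blue) and the 9 other semaphorins and 6 other plexins tested (grey); 4 arrays per line. The 10 genes ran from -4.40 for SEMA3A, whose KYSE180 values were all under the filter, to 1.78 for PLXNA1, and SEMA6D, whose KYSE30 values were under the filter, lay above them at 4.39.

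Promoter sequences are shown for the 3 genes that were at least 2-fold higher in KYSE180 on the probe set used, SEMA3C, SEMA3F and PLXNA1, so that their base composition can be compared. They come from RefSeq on GRCh38.p14 and cover 250 bases before and 50 after a transcription start. Of the 10 genes 8 matched, with 14 such windows, SEMA3A and NRP1 being the others. Capitals mark matches on either strand to the GC box GGGCGG, the AP-1 motif TGANTCA, the TATA motif spelled TATAAA, the E-box motif CACCTG or the cyclic AMP response motif TGACGTCA. These motifs were chosen after the expression values were seen. Matches to the same motif may overlap and were each counted, and no match to one motif overlapped another motif in these 4 windows. Each is written 5′ to 3′ on the strand of its gene. The windows are chr7:80922340-80922639 (minus strand) for the first SEMA3C start, chr7:80919002-80919301 (minus strand) for the second, chr3:50154808-50155107 (plus strand) for the first of 3 SEMA3F starts, and chr3:126982865-126983164 (plus strand) for PLXNA1.
SEMA3C start 1: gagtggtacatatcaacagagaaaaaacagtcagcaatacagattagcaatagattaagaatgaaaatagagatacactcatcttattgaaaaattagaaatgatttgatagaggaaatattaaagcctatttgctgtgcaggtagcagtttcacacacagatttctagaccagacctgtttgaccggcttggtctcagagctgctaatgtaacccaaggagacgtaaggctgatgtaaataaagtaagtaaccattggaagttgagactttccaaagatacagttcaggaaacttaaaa
SEMA3C start 2: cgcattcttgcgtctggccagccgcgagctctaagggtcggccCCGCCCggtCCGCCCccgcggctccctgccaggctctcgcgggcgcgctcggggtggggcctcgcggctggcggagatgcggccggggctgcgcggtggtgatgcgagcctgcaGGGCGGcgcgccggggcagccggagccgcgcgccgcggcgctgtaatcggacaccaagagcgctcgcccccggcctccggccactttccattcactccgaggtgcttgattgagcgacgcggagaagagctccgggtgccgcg
SEMA3F start 1: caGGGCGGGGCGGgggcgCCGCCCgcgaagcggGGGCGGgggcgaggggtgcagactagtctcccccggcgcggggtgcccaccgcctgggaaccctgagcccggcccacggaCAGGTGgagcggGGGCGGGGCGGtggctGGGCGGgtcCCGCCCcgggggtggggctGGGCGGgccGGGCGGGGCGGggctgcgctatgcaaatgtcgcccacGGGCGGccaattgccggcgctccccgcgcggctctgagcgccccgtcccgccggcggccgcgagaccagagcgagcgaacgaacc
PLXNA1: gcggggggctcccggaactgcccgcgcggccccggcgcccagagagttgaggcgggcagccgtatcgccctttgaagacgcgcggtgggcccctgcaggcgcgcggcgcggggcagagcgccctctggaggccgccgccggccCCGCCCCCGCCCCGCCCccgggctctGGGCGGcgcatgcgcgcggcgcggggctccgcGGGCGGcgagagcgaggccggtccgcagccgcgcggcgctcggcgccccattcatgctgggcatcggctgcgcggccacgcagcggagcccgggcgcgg

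The 2 SEMA3C starts differ in composition. The first window held 2 CpG dinucleotides, 36.0% G and C and none of the 5 motifs, and the second 46 CpG, 75.7% G and C and 3 matches to GGGCGG. The SEMA3F window shown held 44 CpG, 12 matches to GGGCGG and 1 to CACCTG, and the PLXNA1 window 54 CpG and 5 matches to GGGCGG. The SEMA3F starts differ in composition too. The second, not shown, held 47 CpG, 80.7% G and C and 2 matches to GGGCGG. The third, not shown, held 2 CpG, 53.0% G and C and none of the 5 motifs. Over 35116 promoters in the table, the median was 14 CpG, and 45% held GGGCGG, 20.6% CACCTG, 11.5% TATAAA, 7.71% TGANTCA and 1.85% TGACGTCA. None of the 14 windows of these genes held the TATA, AP-1 or cyclic AMP response motif, which says only that these letters are not there. Which SEMA3C or SEMA3F start the arrays read was not examined here.

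Beyond the 10 genes, 71 other genes of the pathway were tested. In 30D, 8 of them rose and 3 fell, beside 8.42% and 8.12% of all genes. Together these are 15.5% of the 71, near the 16.5% of all genes called in 30D. In 180D 0 of 71 passed limma's test, beside 3.75% of all genes, with 17 of the 71 at an unadjusted p under 0.05. The lists were 9 other semaphorins, 6 other plexins, 9 co-receptors and partner receptors, 4 further neuropilin ligands, 35 intracellular effectors and 8 proteases that process semaphorins. Of the other semaphorins 0 of 9 passed limma's test in 30D, beside 16.5% of all genes, with 2 of the 9 at an unadjusted p under 0.05. SEMA3E and SEMA3D, which lie with SEMA3A and SEMA3C in 1 stretch of chromosome 7 (in the order SEMA3C, HGF, CACNA2D1, PCLO, SEMA3E, SEMA3A, SEMA3D), had mean values of 2.75 and 3.37, under the filter.

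Of the 6 other plexins, 2 rose in 30D, beside 8.42% of all genes. PLXNA3, an A-type plexin, read 6.00 and 6.04 in 30U and 6.67 and 6.63 in 30D, a rise of 0.63 ± 0.09 (SE; adjusted p = 0.00574). In KYSE180 its values, 5.79 and 5.91 in 180U and 5.98 and 5.70 in 180D, overlapped, and the changes differed by -0.63 ± 0.13 (SE; adjusted p = 0.0244). PLXNA2, another A-type plexin, read 6.57 and 6.49 in 30U and 7.15 and 6.90 in 30D (0.50 ± 0.10, SE; adjusted p = 0.0182), and its second probe set gave 0.57. The PLXNA2 call was lost without 30U replicate 1 (0.54, adjusted p = 0.0688), 30U replicate 2 (0.45, adjusted p = 0.104) or 30D replicate 1 (0.37, adjusted p = 0.0975).

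Among the co-receptors and neuropilin ligands, 1 of 9 and 1 of 4 genes rose in 30D, beside 8.42% of all genes. L1CAM, a cell adhesion molecule that complexes with NRP1, read 6.93 and 6.79 in 30U and 7.74 and 7.61 in 30D (0.82 ± 0.13, SE; adjusted p = 0.00822). On its second probe set the difference was -0.01, and the call was lost without 30U replicate 2 (0.75, adjusted p = 0.0566) or 30D replicate 1 (0.75, adjusted p = 0.0546) and with the mean over both probe sets (0.41, adjusted p = 0.0670). VEGFA, the growth factor that binds NRP1, read 8.29 and 8.30 in 30U and 8.67 and 8.65 in 30D (0.36 ± 0.07, SE; adjusted p = 0.0113). Both 30D arrays were higher, but the call was lost when any KYSE30 array was left out (0.35 to 0.37, adjusted p = 0.0632 to 0.0732), and its 3 other probe sets gave 0.14, -0.11 and 0.42.

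Of the 35 effectors, 4 rose and 1 fell in 30D, beside 8.42% and 8.12% of all genes. FYN, a Src-family kinase in SEMA3A signalling, read 4.76 and 4.81 in 30U and 5.66 and 5.65 in 30D (0.87 ± 0.07, SE; adjusted p = 0.000618), though its second probe set gave 0.13. MICAL2, an enzyme that oxidises actin, read 7.43 and 7.43 in 30U and 8.04 and 8.06 in 30D (0.62 ± 0.06, SE; adjusted p = 0.00153), with 0.21 on its second probe set. In KYSE180 the D arrays of both were below the U arrays, without passing the test and for FYN under the filter, and the changes differed between the lines by -1.08 for FYN and -0.82 for MICAL2 (adjusted p = 0.00133 and 0.00251). CDK5R1, the activator of the kinase CDK5, rose by 0.64 ± 0.12 (SE; adjusted p = 0.0145) and MICAL3 by 0.30 ± 0.08 (SE; adjusted p = 0.0473). Both calls were lost without any KYSE30 array, CDK5R1 at 0.60 to 0.68 (adjusted p = 0.0608 to 0.0823) and MICAL3 at 0.25 to 0.36 (adjusted p = 0.106 to 0.226). That of MICAL3 was also lost with the block (adjusted p = 0.0942), with no filter (adjusted p = 0.0821), with the mean over its probe sets (0.18, adjusted p = 0.136) and without 180U replicate 1 or replicate 2 (adjusted p = 0.0648 in each case). DPYSL3, a collapsin response mediator protein, was the 1 effector that fell (by 0.35, adjusted p = 0.0498, close to the threshold). Whether that call held under the alternatives was not examined here. DPYSL3 was 0.45 higher in 180D than in 180U (adjusted p = 0.0549), and the changes differed by 0.81 ± 0.14 (SE; adjusted p = 0.0127).

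Of the 8 proteases, 2 fell in 30D, beside 8.12% of all genes. ADAMTS1, a secreted metalloproteinase of the extracellular matrix, read 5.02 and 4.94 in 30U and 4.16 and 4.13 in 30D (-0.84 ± 0.07, SE; adjusted p = 0.000786). Its 30D values were under the filter, so the level in 30U was at least 1.44-fold higher. Its second probe set gave 0.13, and the call was lost with the mean over both (-0.35, adjusted p = 0.126). ADAM17, a membrane sheddase, was lower by 0.22 ± 0.05 (SE; adjusted p = 0.0259), a call lost with the block (adjusted p = 0.0678), with no filter (adjusted p = 0.0586), with the mean over its probe sets (-0.14, adjusted p = 0.121) and when any KYSE30 array was left out (-0.24 to -0.20, adjusted p = 0.103 to 0.157).

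**Figure D5:**
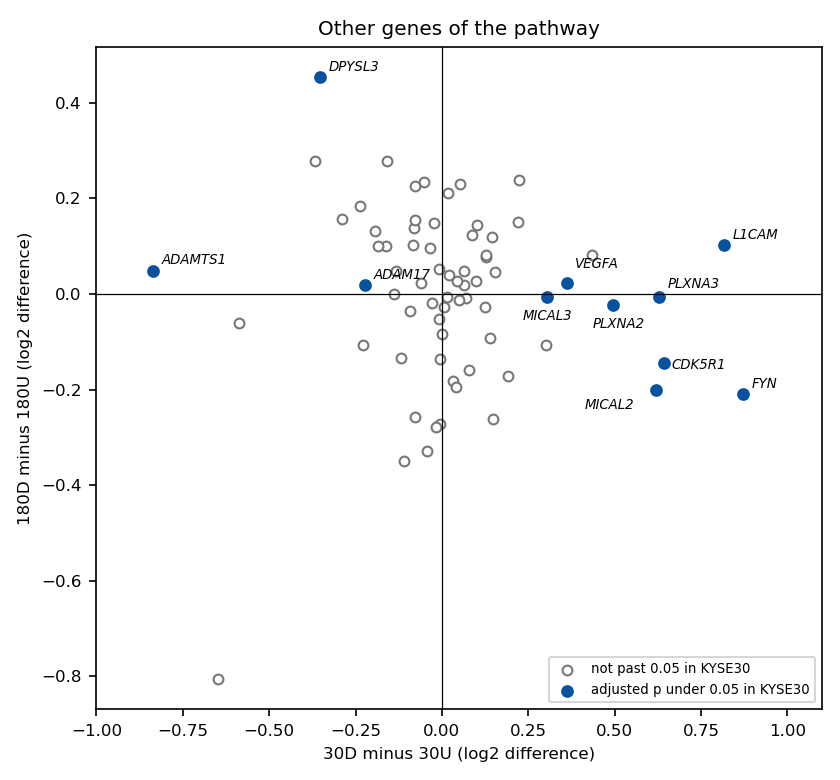
Log2 difference D minus U in KYSE30 (horizontal) and KYSE180 (vertical) for the 71 other pathway genes; filled points passed the test in KYSE30. FYN lay at 0.87 and -0.21, ADAMTS1 at -0.84 and 0.05, and DPYSL3 at -0.35 and 0.45.

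Between the lines, 20 of the 71 were higher and 34 lower in KYSE180, and 17 did not pass, beside 38.7% and 32.7% of all genes. The 54 that passed are 76.1% of the list, near the 71.4% of all genes. Among the 54 are SEMA6D, which passed the filter through KYSE180 alone, and L1CAM, which passed it through KYSE30 alone. PLXNB3, with KYSE30 values under the filter, and NRCAM, with its 180D mean under it, are also counted. For these genes the filter bears on the difference, so their place in the count is a description. SEMA6D, a membrane-spanning ligand of PLXNA1, read 7.40 to 7.73 in KYSE180 and 3.07 to 3.26, under the filter, in KYSE30. It passed the filter through KYSE180 alone, so no p-value is given for its difference. Against the filter value it was at least 8.55-fold higher in KYSE180, but its second probe set gave a difference of 0.72. SEMA4D, the ligand of PLXNB1, was lower in KYSE180 (-1.41), as was SEMA4C, a ligand of PLXNB2 (-0.997, and -0.41 on its second probe set), while SEMA4F was higher (0.23). PLXNA2 (-1.42) and PLXNA3 (-0.49) were lower in KYSE180, opposite to PLXNA1, and PLXNB3 (0.38) was higher, with KYSE30 values under the filter. L1CAM passed the filter through KYSE30 alone and was at least 7.03-fold higher there against the filter value, with KYSE180 values under it. On the second probe set of L1CAM the lines differed by -0.16. Of the other co-receptors, NRCAM (-1.94) and ITGB1 (-0.36) were lower and FLT1 (0.83) higher in KYSE180. NRCAM averaged 4.74 in 180U and 3.93, under the filter, in 180D, so its fold is not firm. Of the neuropilin ligands, VEGFC (-1.52) was lower and VEGFB (0.80) and VEGFA (0.38) were higher. Of the effectors, TIAM1, an exchange factor for Rac, differed by -2.05 (-0.57 on its second probe set), MICAL2 by -1.90 (-1.09 on its second probe set) and RRAS, a small GTPase that plexins act on, by -1.73. Of the proteases, ADAMTS1 (2.94, and 1.86 on its second probe set) and ADAM17 (0.85) were higher in KYSE180, and ADAM10 (-0.66) and PCSK5 (-0.81) lower.

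For each of the 3 genes that changed within a line, the genes most like it were sought by Pearson's r over the 8 arrays after each line's mean was removed, with no test. NF2, ZNF703 and BAK1 were closest to NRP1 (r = 0.994, 0.992 and 0.992), and ASCC1, HTRA2 and RBM33 to SEMA3F (r = 0.996, 0.993 and 0.990). TMEM144, SLC39A8 and PRSS23 were closest to SEMA3C (r = 0.997, 0.993 and 0.985), and SLC39A8 was 0.83 higher in 180D than in 180U (adjusted p = 0.00672). With 8 arrays and 14180 genes such values are high by selection and say nothing of shared control.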

How the data were processed

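RNA of 8 sublines was hybridised to Affymetrix arrays with 54675 probe sets. The deposited log2 values were made by the authors with RMA, per the submitters' processing notes (version not given in the sources used here). RMA makes arrays alike in distribution and compresses low signals, so differences of dim genes are understated. Of the probe sets, 41091 had 1 gene symbol and 1801 several, and 62 controls were left out; 41037 symbols matched a RefSeq table of GRCh38.p14 by Entrez ID. Probe sets with a mean under the 40th percentile (4.46) were left out, and the brightest stood for its gene.

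limma 3.58.1 (lmFit, eBayes, R 4.3.3) fitted 4 group means, two-sided, with Benjamini-Hochberg adjustment over 14180 genes and a threshold of 0.05; it was tested on simulated data. Groups have 2 arrays, which limits the precision. The members and lists were chosen with earlier results of these data known. Named genes are the 10 members, up to 4 genes per pathway list and comparison with the smallest p past the threshold, and the 3 genes most like each member that changed; DPYSL3 in 30D, SEMA3D, SEMA3E and the genes between them, the markers and the probe sets were named outside that rule. One result that the rule names is not reported here. The labels pair sublines by parental population, with crossed numbers in KYSE180. Correlations of same-population deviations were -0.02 in KYSE30 and 0.02 in KYSE180. Alternatives were another filter, probe set rule, centring, variance trend, the population as a block, the arrays of a line alone and each array left out.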

Additional observations from a re-analysis of the deposited data

Results flagged for a closer look

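Between KYSE30 and KYSE180 the D minus U change differed, by a direct limma test, for 1 of the 10 genes and 7 of the 71 other pathway genes (9.86%), beside 12.2% of all genes. SEMA3C changed by 0.44 ± 0.08 (SE; adjusted p = 0.0149) more in KYSE180 than in KYSE30. FYN (-1.08 ± 0.10, SE; adjusted p = 0.00133), MICAL2 (-0.82 ± 0.09, SE; adjusted p = 0.00251), CDK5R1 (-0.79 ± 0.18, SE; adjusted p = 0.0308) and PLXNA3 (-0.63 ± 0.13, SE; adjusted p = 0.0244) had the lower change in KYSE180. The second probe sets gave differences of -0.19 for FYN and -0.21 for MICAL2, and the FYN values in 180D were under the filter. ADAMTS1 (0.88 ± 0.10, SE; adjusted p = 0.00313), DPYSL3 (0.81 ± 0.14, SE; adjusted p = 0.0127) and PTK7, a pseudokinase of the cell surface (0.44 ± 0.09, SE; adjusted p = 0.0196), had the higher one. PTK7 read 8.38 and 8.34 in 30U, 8.26 and 8.14 in 30D, 7.89 and 7.89 in 180U and 8.20 and 8.13 in 180D. COL1A1, a fibroblast marker, also rose in 180D (0.58, adjusted p = 0.0350), and its change differed between the lines by 0.97 (adjusted p = 0.00938). DCN, PDGFRB and THY1 were also above the filter in all groups, and POSTN was under it. The part of these markers in the results was not tested.

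The tests for SEMA3C, PLXNA3, PTK7 and CDK5R1 did not hold with 1 array left out. SEMA3C lost its call without any KYSE30 array (0.42 to 0.46, adjusted p = 0.0545 to 0.0653) and with the mean over its probe sets (0.29, adjusted p = 0.333). PLXNA3 lost its call without any KYSE30 array or 180U replicate 2 (-0.66 to -0.58, adjusted p = 0.0715 to 0.0834). PTK7 lost its call without 30U replicate 1 or replicate 2, 30D replicate 2, 180U replicate 2 or 180D replicate 1 (0.38 to 0.46, adjusted p = 0.0503 to 0.0796). CDK5R1 lost its call without any KYSE30 array or 180D replicate 2 (-0.83 to -0.68, adjusted p = 0.0750 to 0.0998), with the block (adjusted p = 0.0853) and with no filter (adjusted p = 0.0525). ADAMTS1 lost its call with the mean over its probe sets (0.28, adjusted p = 0.388), and its second probe set gave -0.32.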

How the results depend on the processing

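The 10 calls between the lines held under each alternative to the fit. Of the 10 genes, 2 were called in 30D, 1 in 180D and 1 for the difference of the changes. With the mean over the probe sets of a gene, 0 were called by limma in each of these 3, with 3, 1 and 3 at an unadjusted p under 0.05. In 180D and for the difference, 2 were called with a filter at the 50th percentile and 2 with a variance trend. In 180D, 0 were called with the parental population as a block and 0 with only the KYSE180 arrays (3 and 2 at an unadjusted p under 0.05); the block changed no other call of the 10 genes. Leaving out 1 array gave 1 to 3 calls in 30D, 0 to 2 in 180D and 0 to 3 for the difference. Over all genes the calls moved too. In 180D they were 532, with 624 under the stricter filter, 1069 with the trend, 481 with the mean over probe sets, 230 with the block and 195 with only the KYSE180 arrays. For the difference they were 1723, with 1925 under the stricter filter, 2700 with the trend and 1640 with the mean over probe sets. In 30D the mean over probe sets gave 2218. With 1 array left out they ran from 834 to 2553 in 30D (2346 with all arrays), 209 to 502 in 180D and 727 to 1702 for the difference.

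Signs turned for the following values, none of them past the threshold there. In 30D: NRP1 210510_s_at -0.045, NRP2 211844_s_at 0.023 and 214632_at 0.11, and PLXND1 mean over probe sets -0.080, 1563657_at -0.067 and 212235_at -0.25. In 180D: SEMA3F mean 0.072 and 206832_s_at 0.30, SEMA7A 210083_at 0.016, NRP2 mean 2.4e-05, 214632_at 0.011 and 222877_at 0.26, and PLXNA1 1558140_at -0.023. For the difference: NRP1 mean 0.084 and 210510_s_at 0.41, NRP2 211844_s_at -0.067, 214632_at -0.10 and 219367_s_at -0.024, and PLXNA1 mean -0.041 and 1558140_at -0.21. With 1 array left out, the 180D difference ran from -0.035 to 0.87 for SEMA3A, -0.13 to 0.043 for SEMA3F, -0.20 to 0.14 for NRP2 and -0.080 to 0.012 for PLXNB2. The difference of the changes ran from -0.14 to 0.77 for SEMA3A, -0.11 to 0.021 for SEMA4B, -0.059 to 0.12 for PLXNA1 and -0.014 to 0.079 for PLXNB2. The cause was not tested.

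With 2 arrays a group, intervals of the changes are wide, and values near the filter have no firm fold.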
